A study of Drosophila melanogaster with 8 samples.

Results

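The 38 genes described here encode receptors for neuropeptides and peptide hormones of *Drosophila melanogaster*. They were chosen by gene name from the 23932 features of the count table, and all 38 were found there. RNA was measured in adult brains of flies 0 to 1 day old, males and females pooled, in 4 EmcOE samples, whose genotype was *elavC155-Gal4*>*UAS-emc*, and in 4 Control samples, in which the driver line *elavC155-Gal4* was mated to white*. Both groups carry the driver, which is active in neurons also before adulthood, and they differ in the crossed fly line as well as in Emc, so an effect of Emc and one of that line cannot be told apart. The study made this comparison to follow brain RNA when Daughterless (Da), a basic helix-loop-helix activator, is held in inactive dimers by Extramacrochaete (Emc). The paper adds that Emc could also form such dimers with other basic helix-loop-helix proteins.

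Neuropeptides are cut from larger precursor proteins, released from neurons and endocrine cells, and bind receptors of the G-protein-coupled kind on other cells. The receptor passes the signal to a G protein, which changes cyclic AMP, calcium or potassium currents and so alters how readily a neuron fires. In the fly brain such peptides are known for setting sleep, feeding, courtship, stress responses and the daily rhythm. Most of the receptors here belong to the rhodopsin family (class A), and a smaller part to the secretin family (class B1). Some class A receptors carry a large leucine-rich repeat domain outside the cell and are described here as a separate group.

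Total counts were 20751513 to 41619980 per sample, the highest in EmcOE replicate 1. *emc* itself had normalized counts (counts scaled by edgeR's TMM library sizes to 1 common size) of 6038, 6289, 5875 and 6020 in EmcOE brains, against 4951, 4786, 5165 and 4961 in Control brains. The log2 fold change, EmcOE over Control, of *emc* was 0.29 ± 0.043 (SE, edgeR adjusted p = 0.00246), and that of *da* was 0.0029 ± 0.046 (SE, edgeR adjusted p = 0.977). All 7 neuron markers examined were detected, with a summed normalized count of 156500 to 169330 in EmcOE and 145740 to 163480 in Control brains. Of these, 6 of 7 were higher in EmcOE (median 0.19 on the log2 scale), and 1 of 7, *fne*, was upregulated (0.33 ± 0.063 SE, edgeR adjusted p = 0.00876). Markers of other cells were present too, and no listed marker was at 0 in any sample. The 8 photoreceptor markers summed to 475220 to 532270 in EmcOE and 508900 to 598130 in Control brains. All 8 had a negative log2 fold change (median -0.10), 0 of 8 passed the test with edgeR, and 1 had an unadjusted p under 0.05. The 8 glial markers summed to 111370 to 122140 in EmcOE and 125060 to 128810 in Control brains, with 1 of 8, *Gs2*, downregulated (-0.27) and 5 of 8 lower. *Gs2* had the highest counts of the 8, with means of 40970 in EmcOE and 49432 in Control brains. The median log2 fold change of the 8 was -0.039. The 5 hemocyte markers summed to 1914 to 2585 in EmcOE and 2843 to 3654 in Control brains, with all 5 lower and 3 of 5, *Hml* (-0.69), *NimC1* (-0.48) and *Ppn* (-0.53), downregulated. The 10 fat body markers summed to 90277 to 161850 in EmcOE and 53176 to 201580 in Control brains, with 4 of 10, *Lsp1alpha* (1.30), *Lsp1beta* (1.49), *Fbp1* (2.06) and *Fbp2* (1.96), upregulated. In all 7 of 10 were higher, and 3 of 10, *Lsp1gamma* (-0.25), *Yp3* (-0.21) and *apolpp* (-0.10), were lower and not called. The 7 muscle markers summed to 22811 to 37303 in EmcOE and 29209 to 43271 in Control brains. All 7 had a negative log2 fold change (median -0.31), 0 of 7 passed the test with edgeR, and 3 had an unadjusted p under 0.05. The part of these cells in the receptor results was not tested.

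*SIFaR*, *MsR1* and *AstC-R2* were upregulated and *AstC-R1* was downregulated in EmcOE brains, and 34 receptor genes did not pass the test. The summed normalized count of the receptors was 18157 ± 267 in EmcOE and 17908 ± 330 in Control brains (SD, n = 4 each), a ratio of 1.01. A feature was called changed at an adjusted p of at most 0.05 from edgeR's quasi-likelihood test, adjusted over all 9788 features tested, together with a minimum size of 0.2 for the log2 fold change. Testing required a group mean of 20 normalized counts, which all 38 receptors reached in both groups. By these rules 3 of 38 receptors were upregulated, where 3.57% of all features tested were, and 1 was downregulated, where 5.12% of all features were. Called in either direction were 4 receptors (10.5%), against 8.68% of all features. The median log2 fold change of the receptors was 0.027, and that of all features was 0.013. Between the groups 21 receptors had a positive and 17 a negative log2 fold change. In whole brains, fewer cells with a receptor and less receptor RNA per cell cannot be told apart.

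**Figure D1:**
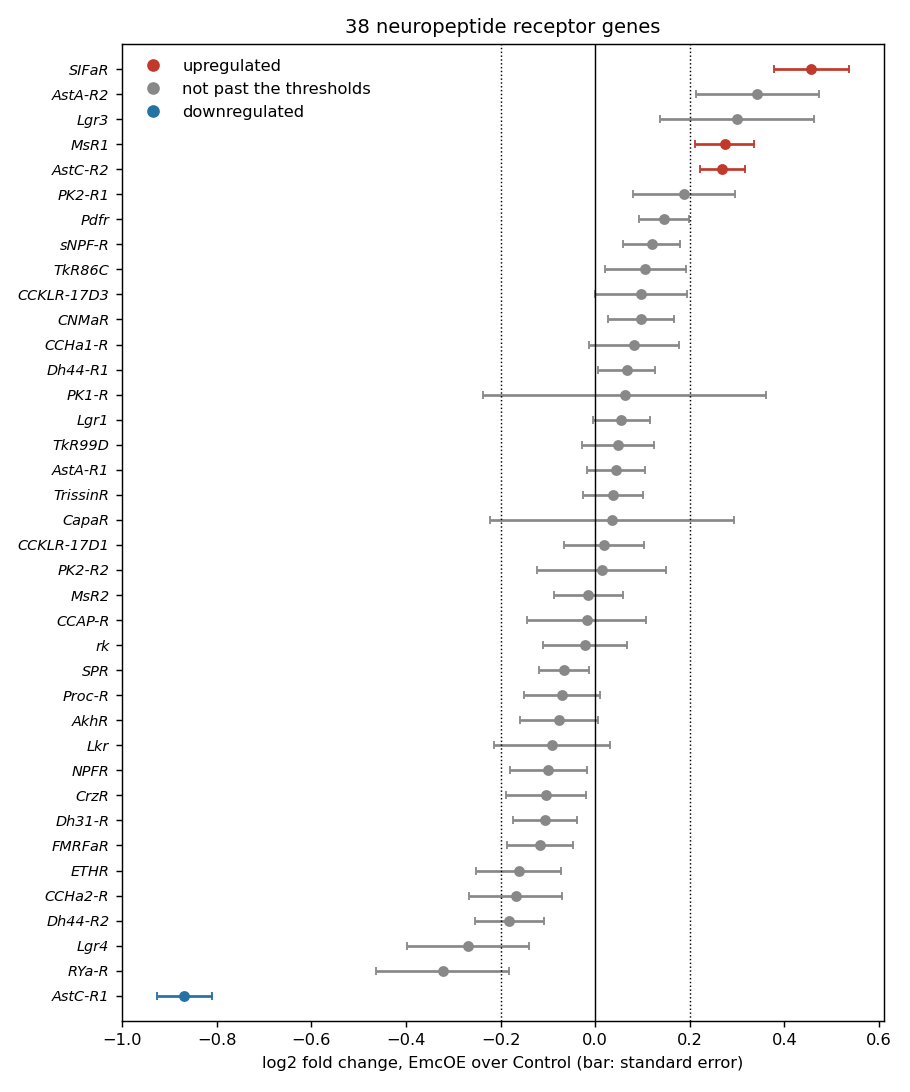
Log2 fold change (EmcOE over Control, x axis) of each of the 38 receptor genes (rows, ordered by fold change), with bars for the standard error and dotted lines at the thresholds of -0.2 and 0.2. *AstC-R1* lies far below the rest at -0.87, *SIFaR* is highest at 0.46, and 30 of the 34 genes that did not pass the thresholds lie between the dotted lines.

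The largest change was in the allatostatin C receptors, which are related to the somatostatin receptors of vertebrates. Allatostatin C is named for stopping juvenile hormone synthesis in a moth, and its receptors are known to act through inhibitory G proteins. *AstC-R1* (FBgn0036790; BDGP6.32 3L, 18560258 to 18576326, plus strand) had normalized counts of 381, 404, 391 and 401 in EmcOE brains, against 690.2, 725, 736 and 726 in Control brains. Every EmcOE sample lay far below every Control sample, and the spread within each group was small. The mean was 394 ± 10.7 in EmcOE and 719 ± 20.1 in Control brains (SD, n = 4 each), a log2 change of -0.87 ± 0.058 (SE, edgeR adjusted p = 8.97e-06). *AstC-R1* remained downregulated in each of the 8 fits that left out 1 sample, with log2 fold changes of -0.89 to -0.85.

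*AstC-R2* (FBgn0036789; 3L, 18485137 to 18502557, minus strand), the second receptor of the same peptide, moved the other way. Its normalized counts were 961, 920, 955 and 951 in EmcOE brains, against 779.8, 797, 779 and 788 in Control brains. The groups did not overlap, and *AstC-R2* had the smallest relative spread among the Control values of all 38 receptors (1.06%). The log2 fold change of *AstC-R2* was 0.27 ± 0.048 (SE, edgeR adjusted p = 0.00672), and it was upregulated in each of the 8 fits that left out 1 sample. *AstC-R1* therefore made up 28.4%, 30.5%, 29.0% and 29.7% of the summed counts of both receptors in EmcOE brains, against 46.95%, 47.6%, 48.6% and 47.96% in Control brains. The sum itself was 1341 ± 12.3 in EmcOE and 1505 ± 23.6 in Control brains (SD, n = 4 each), and did not overlap between the groups. These genes lie 57.7 kb apart on opposite strands of chromosome 3L, and 0% of the exon length of either lies in another feature.

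The region around the allatostatin C receptors held other changed genes, which were examined after the values were seen. Of 11 features tested within 100 kb of *AstC-R1*, 4 were called, where 8.68% of all features were. They were *AstC-R2*, itself one of the receptors, *GNBP1* (log2 fold change 0.58 ± 0.12 SE), *GNBP2* (-0.74 ± 0.094 SE) and *CG4306* (-0.91 ± 0.22 SE). Apart from *AstC-R2*, at 57701 bases, they lay near the edge of this window (*CG4306* 97095, *GNBP2* 97148 and *GNBP1* 99474 bases from *AstC-R1*). Of the features tested nearer to *AstC-R1* than *CG4306*, only *AstC-R2* was called. The largest log2 fold change there was that of *CG32198*, which lies between *AstC-R2* and *AstC-R1*. It was -6.11 ± 1.85 (SE, edgeR adjusted p = 0.0653) and did not pass the test. *GNBP1* and *GNBP2* encode proteins of a family that binds microbial glucans. Of 7 features within 100 kb of *AstC-R2*, 2 were called, *CG4306* and *AstC-R1*. Within the same distance 0 of 17 features were called around *MsR1* and 0 of 17 around *SIFaR*. Whether sequence differences between the crossed lines bear on the region was not tested.

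*SIFaR* (FBgn0038880; 3R, 21276664 to 21293998, minus strand) had the largest increase. It encodes the receptor of SIFamide, a peptide made by a few large brain neurons and known for its part in courtship, sleep and feeding. Its normalized counts were 599, 623, 683 and 549 in EmcOE brains, against 459, 456, 462 and 409 in Control brains. The lowest EmcOE sample was above the highest Control sample. The log2 fold change was 0.46 ± 0.080 (SE, edgeR adjusted p = 0.00604), a ratio of 1.37, and it was 0.40 to 0.50 with 1 sample left out, called in all 8 fits. *ETHR*, the receptor of the hormone that triggers ecdysis, lies 11.5 kb from *SIFaR* and had a log2 change of -0.16 ± 0.091 (SE), which did not pass the test. *CG17298*, within the span of *SIFaR*, had 0.44 ± 0.19 (SE, edgeR adjusted p = 0.175) and did not pass either. The median over the 17 features tested within 100 kb was -0.097.

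*MsR1* (FBgn0035331; 3L, 2322693 to 2345799, plus strand) encodes a receptor of myosuppressin, a peptide known for slowing the contraction of gut and heart muscle. Its normalized counts were 892, 935, 938 and 931 in EmcOE brains, against 784, 822, 694 and 756 in Control brains. All EmcOE samples were above all Control samples, which were more spread. The log2 fold change was 0.27 ± 0.062 (SE, edgeR adjusted p = 0.0213). The call was lost without EmcOE replicate 2 (edgeR adjusted p = 0.0604) and without EmcOE replicate 3 (edgeR adjusted p = 0.0553), and it held in the other 6 fits that left out 1 sample. *MsR2*, the second myosuppressin receptor, lies 21.7 kb away on the same strand. *MsR2* had normalized counts of 292, 312, 281 and 323 in EmcOE brains, against 312, 303, 309 and 295 in Control brains, and the groups overlapped. Its log2 fold change was -0.014 ± 0.072 (SE).

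**Figure D2:**
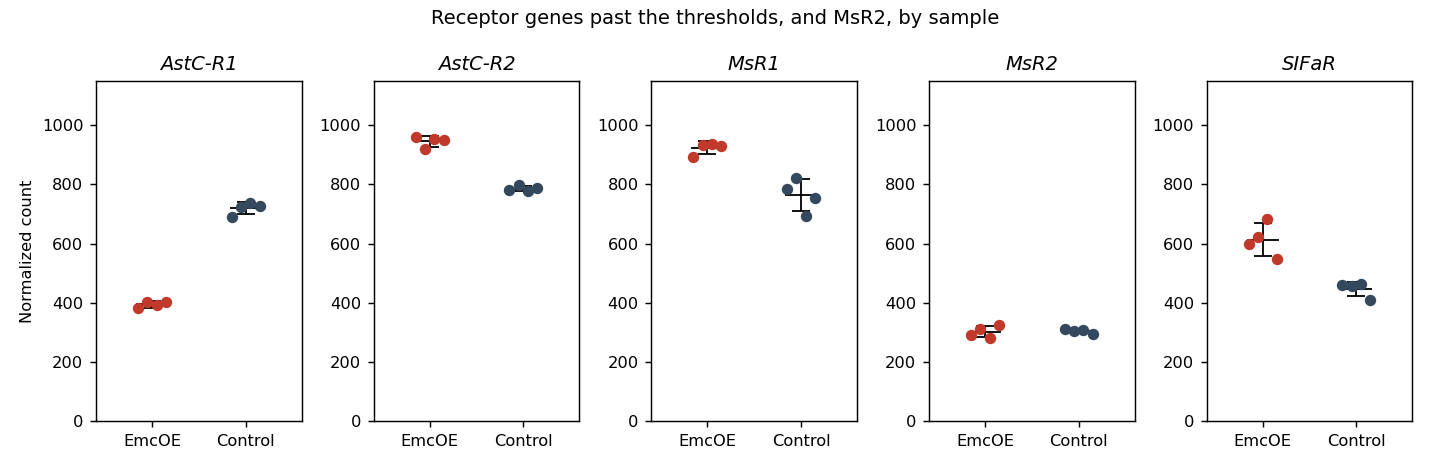
Normalized counts (y axis, from 0) of the 4 called receptor genes and *MsR2* in each of the 4 EmcOE and 4 Control samples, 1 point per sample, with the mean and SD as black bars. *AstC-R1* is at 381 to 404 in EmcOE and 690.2 to 736 in Control brains, *AstC-R2*, *MsR1* and *SIFaR* are higher in every EmcOE sample, and *MsR2* overlaps between the groups.

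Several fly peptides have a pair of receptors, and closely related peptides also have related receptors, so the balance within 8 such pairs was compared as the log2 ratio of normalized counts in each sample. *AstC-R1*/*AstC-R2* had log2 ratios of -1.34, -1.19, -1.29 and -1.24 in EmcOE brains, against -0.18, -0.14, -0.081 and -0.12 in Control brains. The ratio was lower in EmcOE by 1.14 on the log2 scale, with no overlap (difference -1.14, two-sided exact permutation p = 0.0286, the floor for 4 against 4 samples). *MsR1*/*MsR2* had log2 ratios of 1.61, 1.58, 1.74 and 1.53 in EmcOE brains, against 1.33, 1.44, 1.17 and 1.35 in Control brains. This ratio was higher in EmcOE with no overlap (difference 0.29, exact two-sided permutation test, p = 0.0286), but p was 0.0571 without EmcOE replicate 3. Adjusted over the 8 pairs by Benjamini-Hochberg, the exact permutation p was 0.114 for both.

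The other 6 pairs overlapped between the groups. The galanin receptor-like *AstA-R1* and *AstA-R2*, receptors of the feeding-related allatostatin A, had a log2 ratio of 2.87 ± 0.17 in EmcOE and 3.17 ± 0.23 in Control brains (SD, n = 4 each; exact permutation p = 0.0857). For *CCHa1-R*/*CCHa2-R*, receptors of the CCHamides, the log2 ratio was 0.13 ± 0.13 in EmcOE and -0.13 ± 0.19 in Control brains (SD, n = 4 each; exact permutation p = 0.0571). *Dh44-R1*/*Dh44-R2*, receptors of a diuretic hormone related to corticotropin-releasing factor, had 0.38 ± 0.13 in EmcOE and 0.13 ± 0.13 in Control brains (SD, n = 4 each; exact permutation p = 0.0857). Without EmcOE replicate 1 the *Dh44-R1*/*Dh44-R2* difference of 0.25 became 0.31 (exact permutation p = 0.0286, the floor with 1 sample left out). Leaving out any other sample kept the exact permutation p of this pair above 0.05. The drosulfakinin receptors *CCKLR-17D1*/*CCKLR-17D3*, the hugin pyrokinin receptors *PK2-R1*/*PK2-R2* and the tachykinin-type receptors *TkR86C*/*TkR99D* had differences of -0.087, 0.18 and 0.063, each with an exact permutation p of 0.257.

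**Figure D3:**
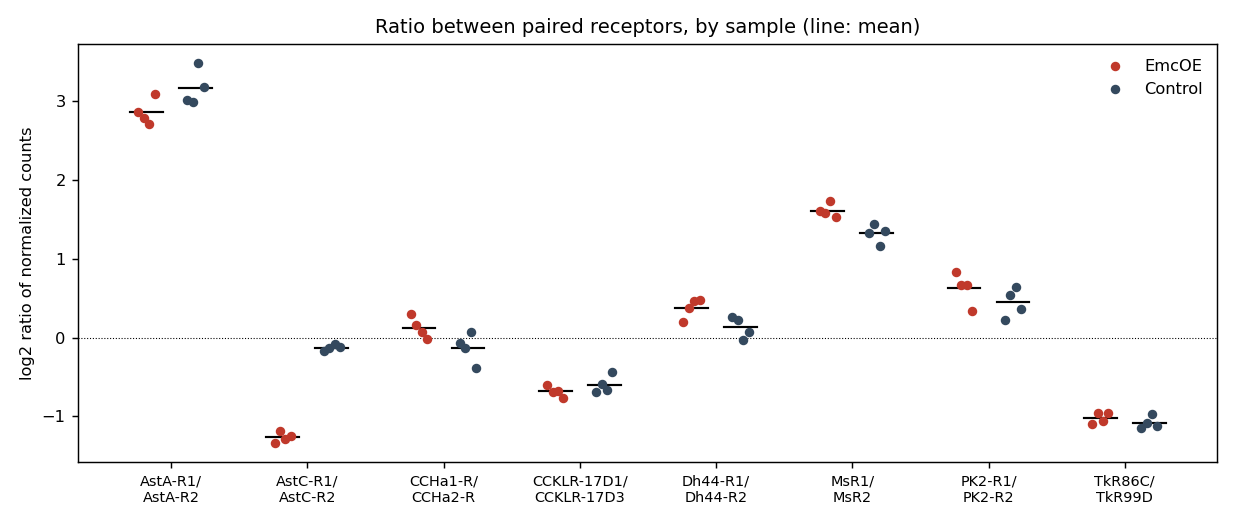
Log2 ratio of normalized counts (y axis) within 8 pairs of related receptors, EmcOE samples in red on the left and Control samples in dark blue-grey on the right of each pair, 1 point per sample with a line at the mean. Only *AstC-R1*/*AstC-R2* (mean -1.26 in EmcOE and -0.13 in Control) and *MsR1*/*MsR2* (1.61 in EmcOE and 1.32 in Control) do not overlap between the groups.

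The 34 receptors that did not pass the test had log2 fold changes of -0.32 to 0.34, and 30 of them were under 0.2 in size. Their adjusted p-values from edgeR ranged from 0.115 to 0.964. Precision depended on the level, with standard errors of 0.048 to 0.098 for the 28 receptors with a mean normalized count of 200 or more, and 0.11 to 0.30 for the other 10. Among those 10, *AstA-R2* had a larger log2 fold change than *AstC-R2* and did not pass the test.

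The 4 uncalled receptors of 0.2 or more in size were all of low level. *AstA-R2* had normalized counts of 113, 122, 117 and 99.5 in EmcOE brains, against 98.4, 92.8, 74.1 and 90.5 in Control brains. The EmcOE values were all higher, by a narrow margin, and the log2 fold change was 0.34 ± 0.13 (SE, edgeR adjusted p = 0.128). *RYa-R*, the receptor of RYamides, had 68.4, 59.4, 62.1 and 73.8 in EmcOE brains, against 84.1, 84.0, 72.9 and 89.3 in Control brains. These groups overlapped in 1 sample of each, and the log2 fold change was -0.32 ± 0.14 (SE, edgeR adjusted p = 0.180).

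Both others of this size belong to the leucine-rich repeat receptors, the family of the vertebrate glycoprotein hormone and relaxin receptors. *Lgr3*, the receptor through which the relaxin-like Ilp8 delays maturation in larvae, had 95.1, 135, 121 and 84.9 in EmcOE brains, against 81.9, 84.0, 93.6 and 94.0 in Control brains. EmcOE replicates 2 and 3 were high, replicate 1 lay just above the highest Control sample and replicate 4 within the Control range (log2 fold change 0.30 ± 0.16 SE, edgeR adjusted p = 0.280). *Lgr4* had 89.0, 108, 114 and 108 in EmcOE brains, against 146, 118, 117 and 123 in Control brains. All its EmcOE values were lower, with a log2 change of -0.27 ± 0.13 (SE, edgeR adjusted p = 0.220). Other features cover 34.5% of the exon length of *Lgr3* and 29.2% of that of *Lgr4*. *Lgr1* (log2 fold change 0.055), whose ligand is the thyrostimulin-like pair of Gpa2 and Gpb5, and *rk* (-0.021), the bursicon receptor that acts in cuticle tanning and wing expansion after eclosion, overlapped between the groups.

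Of the class B1 receptors 0 of 4 were called. *Pdfr* receives the peptide PDF, by which clock neurons keep each other in step. It had normalized counts of 1692, 1523, 1627 and 1593 in EmcOE brains, against 1538, 1438, 1364 and 1483 in Control brains. The ranges overlapped only through EmcOE replicate 2 and Control replicate 1, and the log2 fold change was 0.15 ± 0.053 (SE, edgeR adjusted p = 0.115). *Dh44-R2* had 668, 639, 617 and 609 in EmcOE brains, against 665, 705, 812 and 696 in Control brains. EmcOE replicate 1 lay just above the lowest Control sample, and the log2 fold change was -0.18 ± 0.073 (SE, edgeR adjusted p = 0.145). *Dh44-R2* shares 33.2% of its exon length with other features. *Dh44-R1* had 764, 833, 851 and 852 in EmcOE brains, against 797, 819.5, 797 and 734 in Control brains. These ranges overlapped, and the log2 fold change was 0.066 ± 0.061 (SE). The calcitonin receptor-like *Dh31-R* had 747, 798, 889.5 and 845 in EmcOE brains, against 851, 849, 882 and 946 in Control brains. Its ranges overlapped too, at -0.11 ± 0.068 (SE) on the log2 scale.

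The unadjusted p was under 0.05 for 8 of 38 receptors (21.1%), the 4 called ones and *AstA-R2*, *RYa-R*, *Pdfr* and *Dh44-R2*, and for 25.5% of all features. The groups did not overlap for 7 of 38 receptors (18.4%), against 16.4% of all features. Of these, 5 receptors were higher in every EmcOE sample, against 8.51% of all features, and 2 were lower, against 7.86%. The 3 uncalled ones were *AstA-R2*, *Lgr4* and *sNPF-R*, the receptor of short neuropeptide F, a peptide that promotes feeding. *sNPF-R* had 1036, 1100.2, 1074 and 1069.7 in EmcOE brains, against 1009, 881, 1035 and 1015 in Control brains. EmcOE replicate 1 and Control replicate 3 were almost equal, and the log2 fold change was 0.12 ± 0.060 (SE, edgeR adjusted p = 0.249).

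Among the other class A receptors, those of peptides for feeding and metabolism differed by less than 0.2. *NPFR*, of neuropeptide F, had a log2 change of -0.10, *CCHa2-R*, through which a nutrient signal reaches the insulin-producing cells, -0.17, and *AkhR*, of the fat-mobilizing adipokinetic hormone, -0.077. *Lkr*, of leucokinin, had -0.091 and *CrzR*, of corazonin, -0.10. *CCAP-R*, of crustacean cardioactive peptide, which acts in ecdysis, had -0.018. *SPR*, the sex peptide receptor, had normalized counts of 916, 979, 979 and 986 in EmcOE brains, against 1039.7, 1008, 954 and 1038 in Control brains, and a log2 change of -0.067 ± 0.053 (SE). *Proc-R*, of proctolin, had 1094, 1073, 1129 and 1119 in EmcOE brains, against 1191, 1231, 953 and 1257 in Control brains, and a log2 change of -0.070 ± 0.081 (SE). For *Proc-R* Control replicate 3 lay below all other samples. *FMRFaR* had -0.12, *TrissinR* 0.038 and *CNMaR* 0.097. The groups overlapped for each of these 11 genes. Another feature covers 26.8% of the exon length of *SPR*. The lowest receptors were *CapaR*, known from the renal tubules, with 32.8, 28.5, 41.7 and 35.8 in EmcOE brains, against 43.1, 25.1, 24.3 and 42.9 in Control brains, and *PK1-R*, with 28.4, 26.1, 24.4 and 54.8 in EmcOE brains, against 39.8, 30.6, 24.3 and 32.1 in Control brains. Their log2 fold changes of 0.035 and 0.062 had standard errors of 0.26 and 0.30.

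Levels between genes were compared per length, as the normalized count per kb of exon. They spanned 13.3 to 345 in EmcOE and 12.6 to 318 in Control brains, with medians of 109 in EmcOE and 102 in Control brains. By the mean of both groups, the 5 highest receptors were *Pdfr* (345 in EmcOE and 312 in Control), *Dh44-R1* (333 in EmcOE and 318 in Control), *Proc-R* (292 in EmcOE and 306 in Control), *SPR* (259 in EmcOE and 271 in Control) and *Dh31-R* (249.7 in EmcOE and 269 in Control) per kb. *Pdfr*, *Dh44-R1* and *Proc-R* overlapped with each other across the Control samples. Thus 3 of the 4 class B1 receptors measured here were among these 5, and *Dh44-R2* ranked 13 of 38, with 193 in EmcOE and 219 in Control per kb. In both groups 12 receptors were at 200 per kb or more, and 8 were under 50 per kb. *AstC-R1* stood at 135 per kb in EmcOE and 247 in Control brains, and *AstC-R2* at 253 in EmcOE and 210.4 in Control brains. In Control brains *AstC-R1* was thus the higher of the pair per length, and in EmcOE brains the lower. *MsR1* (261 in EmcOE and 216 in Control) and *SIFaR* (122 in EmcOE and 88.8 in Control) per kb were in the upper and middle part of the range. Exon lengths are those of all isoforms joined, and read pairs that fall on more than 1 feature were not counted.

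**Figure D4:**
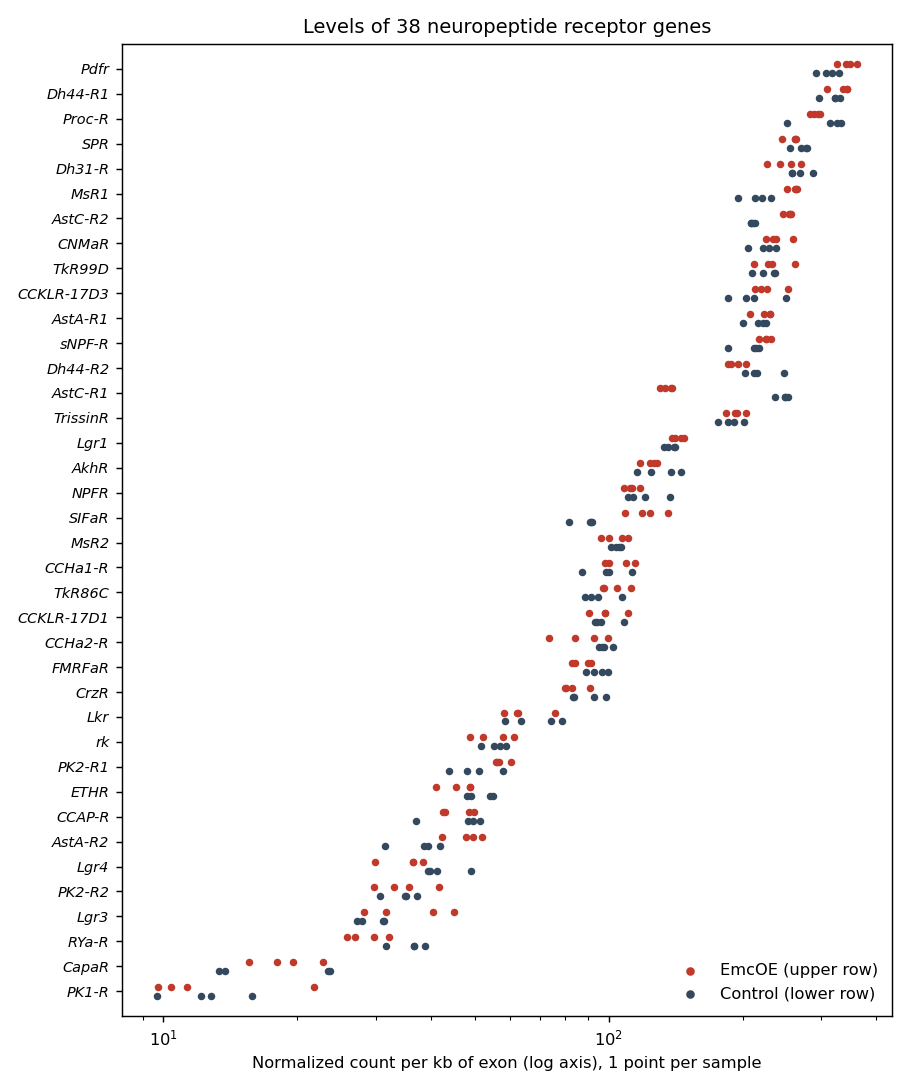
Normalized count per kb of exon (x axis, log scale) of the 38 receptor genes in each EmcOE sample (red, upper row of points) and Control sample (dark blue-grey, lower row), ordered by mean level. Samples lie close together for most genes, but not for the lowest, *PK1-R*, at 13.3 per kb in EmcOE and 12.6 in Control brains. *Pdfr* is highest at 345 in EmcOE and 312 in Control, and *AstC-R1* shows the most widely separated clusters, at 135 in EmcOE and 247 in Control.

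By chromosome, 3 of the 4 called receptors lie on 3L, which holds 10 receptors, and the fourth on 3R, which holds 13. Those on 3L include the neighbours *AstC-R1* and *AstC-R2*. The share of all features called on each chromosome was not examined, so these counts do not show a concentration on 3L. Of the 7 receptors on X, 5 on 2R and 3 on 2L none passed the thresholds with edgeR, with 2 of these 15, *Pdfr* and *Dh44-R2*, under an unadjusted p of 0.05 (*Pdfr* 0.0197 and *Dh44-R2* 0.0303). DESeq2 called none of them either.

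The precursor genes of the receptors' peptides were set beside them, 34 in all, of which 28 passed the minimum. Of these 0 were upregulated and 1 was downregulated (3.57%), where 3.57% of all features were up- and 5.12% downregulated, and 3 had an unadjusted p under 0.05. Their median log2 fold change was 0.0043, against 0.013 over all features. *AstC*, the peptide of both allatostatin C receptors, had normalized counts of 2206 ± 116 in EmcOE and 2508 ± 89.9 in Control brains (SD, n = 4 each), without overlap. Its log2 fold change of -0.19 ± 0.050 (SE, edgeR adjusted p = 0.0430) was under the threshold in size. *Ms*, the precursor of myosuppressin, had a log2 change of 0.12 ± 0.059 (SE), and *SIFa* had -0.073 ± 0.11 (SE), and neither passed the test. *Hug*, the precursor of hugin, was the downregulated gene, with 1747 ± 141 in EmcOE and 2173 ± 110.2 in Control brains (SD, n = 4 each) and a log2 change of -0.32 ± 0.063 (SE, edgeR adjusted p = 0.0117). Its receptors *PK2-R1* (0.19 ± 0.11 SE) and *PK2-R2* (0.014 ± 0.14 SE) were not called. *ETH*, *Lk* and *SP* had no count in any sample. *Mip*, the other precursor listed for *SPR*, had means of 1197 in EmcOE and 1236 in Control brains. Its log2 change of -0.048 ± 0.058 (SE) did not pass the test. Other features cover 90.5% of the exon length of *ETH* and 93.0% of that of *Lk*, where read pairs that fall on more than 1 feature were not counted.

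**Figure D5:**
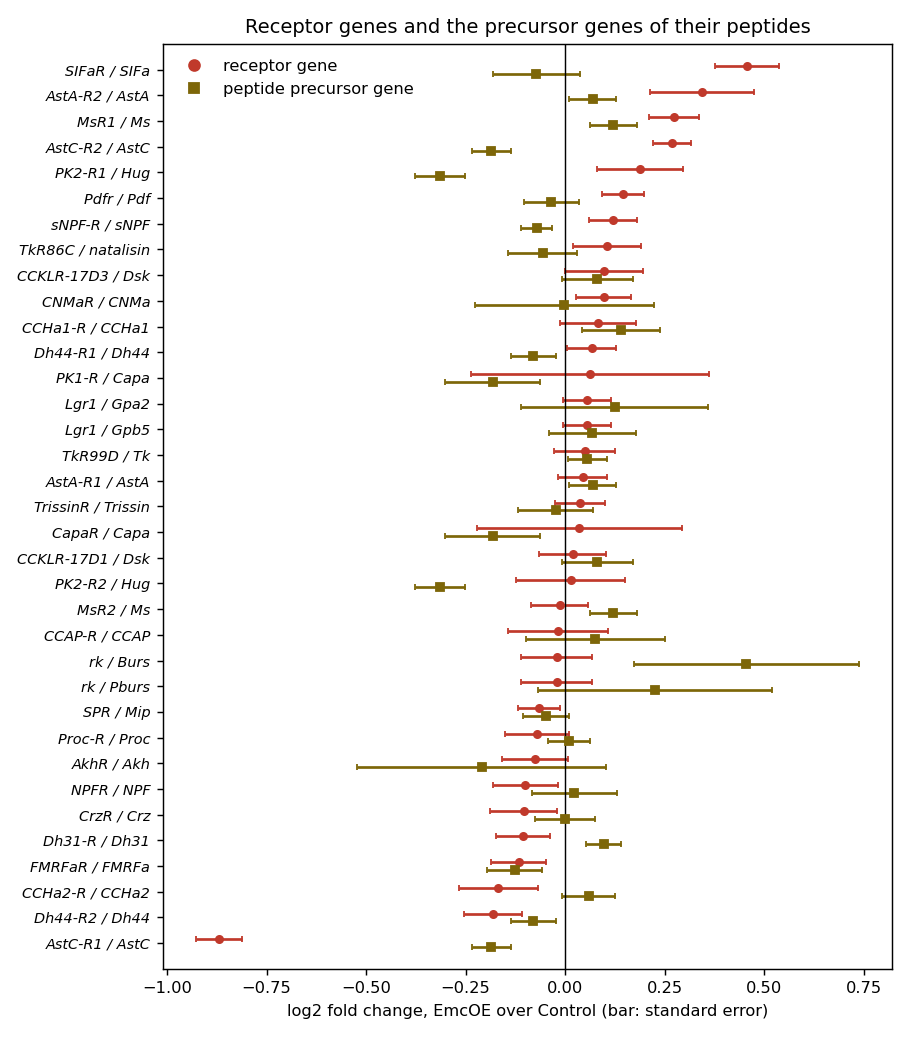
Log2 fold change (EmcOE over Control, x axis, bars for the standard error) of each receptor gene (red circles) and of the precursor gene of its peptide (brown squares), for precursors that passed the minimum count. *AstC-R1* at -0.87 and *AstC-R2* at 0.27 lie on either side of *AstC* at -0.19, and *SIFaR* at 0.46 and *SIFa* at -0.073 are far apart.

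Lists for G proteins, desensitization, RGS proteins and second messengers held 35 genes that were tested. These lists were not limited to genes that act below neuropeptide receptors. Of the 35 genes 3 were upregulated (8.57%) and 0 downregulated with edgeR, where 3.57% of all features were up- and 5.12% downregulated. Their median log2 fold change was 0.085, against 0.013 over all features. Both *RSG7* (0.25 ± 0.054 SE, edgeR adjusted p = 0.0172) and *Dhit* (0.33 ± 0.053 SE, edgeR adjusted p = 0.00437) encode RGS proteins, which speed the shut-off of G proteins, and *Dhit* shares 58.1% of its exon length with other features. *Plc21C*, a phospholipase C that acts below Gq, had a log2 change of 0.21 ± 0.047 (SE, edgeR adjusted p = 0.0201). Of the 10 G protein subunits tested 0 passed the thresholds with edgeR, and 2, *Galphao* (0.13) and *Gbeta13F* (0.14), had an unadjusted p under 0.05. Of the 5 arrestin and receptor kinase genes 0 were called, and 0 had an unadjusted p under 0.05. For the 15 second messenger enzymes this number was 6 and for the 5 RGS genes 3, against 25.5% of all features. Among the enzymes, *dnc* had a log2 change of 0.19 ± 0.050 (SE, edgeR adjusted p = 0.0375), under the threshold in size.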

How the data were processed

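Read pairs from poly(A) RNA of adult brains were trimmed by the authors with BBDuk, mapped with STAR 2.7.4a in 2 passes to BDGP6.32 and counted per gene with featureCounts 2.0.1 without strand. The deposited values are these raw counts, with exon coordinates and exon length per feature. Total counts per sample were 20751513 to 41619980, and precision is limited by the spread between 4 samples per group.

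Tests used edgeR 4.0.16 under R 4.3.3 (TMM, glmQLFit and glmQLFTest, no block). A feature was tested if either group averaged 20 normalized counts, p was adjusted over all tested features by Benjamini-Hochberg, and calls needed 0.05 for the adjusted p and 0.2 for the size of the log2 fold change. Standard errors were derived from the F statistic. Pair ratios used a pseudocount of 0.5 and exact permutation over the 70 assignments of 4 against 4 samples. Where 1 sample was left out, all assignments of the remaining samples were used. The labels do not say how the replicates were raised, so p-values measure the spread between these samples. Scripts were tested on simulated counts. Alternatives were DESeq2 1.42.0, other normalizations, filters and thresholds, a replicate block, removal of the exon length trend, and leaving out each sample.

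The receptors and lists were chosen with earlier results of these data known. Receptors past the thresholds without or with a replicate block are named with full statistics. Sample values are given for their paired receptors, the 5 highest per kb and those with an unadjusted p under 0.05, and from the other lists the genes past the thresholds are named. Other named genes were chosen after their values were seen. Promoter and protein sequences were not used here.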

Additional observations from a re-analysis of the deposited data

Results flagged for a closer look

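In each group of 4 samples, receptor genes, *emc* and *da* were examined for 1 sample far from the other 3. Of 80 such groups 5 had one, where chance gives about 1 in 20. *MsR1* had a normalized count of 892 in EmcOE replicate 1, with the others at 931 to 938, and *SPR* had 916 in the same sample, with the others at 979 to 986. *PK1-R* had 54.8 in EmcOE replicate 4, with the others at 24.4 to 28.4. *SIFaR* had 409 in Control replicate 4, with the others at 456 to 462, and *sNPF-R* had 881 in Control replicate 2, with the others at 1009 to 1035.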

How the results depend on the processing

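*AstC-R1*, *AstC-R2* and *SIFaR* kept their calls under all 18 alternatives, and *MsR1* under 15. The number of upregulated receptors was 2 to 3 with 1 sample left out. With total counts in place of TMM the median log2 fold change of all features was 0.080, that of the receptors 0.096, and 272 features were downregulated. An adjusted p of 0.01 left 139 features up- and 193 downregulated, without *MsR1* (edgeR adjusted p = 0.0213). With 1 sample left out, 204 to 465 features were upregulated (fewest without Control replicate 2, 229 without Control replicate 1) and 323 to 513 downregulated (fewest without Control replicate 2), and the receptor median was -0.022 to 0.048. The differences in log2 ratio were 0.24 to 0.33 for *MsR1*/*MsR2* and 0.20 to 0.31 for *Dh44-R1*/*Dh44-R2*. Genes near 0 changed sign, none of them called. With total counts *CCAP-R* had 0.049, *rk* 0.042 and *MsR2* 0.050. With 1 sample left out the log2 fold changes were -0.12 to 0.034 for *CCAP-R*, -0.078 to 0.035 for *rk*, -0.048 to 0.018 for *MsR2*, -0.00063 to 0.076 for *AstA-R1*, -0.098 to 0.18 for *CapaR*, -0.036 to 0.070 for *CCKLR-17D1*, -0.26 to 0.19 for *PK1-R*, -0.079 to 0.089 for *PK2-R2*, -0.011 to 0.091 for *TkR99D* and -0.025 to 0.028 for *da*. *da* was at -0.0034 with DESeq2-type size factors, -0.0043 with DESeq2, -0.0042 with DESeq2 and the replicate block, -0.0013 with no filter, -0.0030 with a minimum of 100 and -0.017 with the length trend removed. The cause was not tested. The study's methods name no design formula, so the main fit had no block. Same-numbered samples, whose column names share a letter, had correlations of their deviations of -0.49, 0.15, 0.032 and -0.21. Only samples numbered 2 correlated best with their own number. The replicate block gave 326 up- and 487 downregulated features, and the same 4 receptors. DESeq2 with the block was added after seeing the data. The search of promoters for E-boxes was not run. Receptors under a normalized count of 200 had the larger standard errors, 0.11 to 0.30.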
